A study of Homo sapiens with 4 samples.

Results

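Acute-phase and inflammatory response genes were examined in the authors' list of regions with more H3K4me1 ChIP reads in HepG2 cells depleted of LSD2 than in control cells. The 10 genes were CRP, SAA1, SAA2, HAMP, CXCL8, IL6, IL6R, STAT3, SOCS3 and NFKBIA. They lie in 9 loci, since SAA2 and SAA1 share a span. A called region, or peak, was a member if it overlapped one of the 9 gene spans on hg19, rounded to 1 kb and widened by 20 kb on each side. This gave 32 peaks (exact 95% Poisson interval 21.9 to 45.2) of the 160601 distinct peaks in the list, a share of 0.0199%.

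HepG2 is a human cell line from a liver tumour. In the cells labelled LSD2-KD an siRNA against LSD2 (gene KDM1B), a demethylase of histone H3 lysine 4, was introduced with RNAiMAX at about 50% confluence. In those labelled Cont the siRNA was directed at GL3, a luciferase sequence. All cells grew in DMEM with 25 mM glucose and 10% serum. Each condition had 1 H3K4me1 ChIP library and 1 input library, 4 samples in all, so no difference between conditions could be tested. The deposited list gives a position for each peak and no read count, height or fold, so no value per sample can be shown and the depth is unknown. The extent of the knockdown was not analysed here. The names of both ChIP libraries in the file header carry different dates, so date and condition cannot be told apart. The list holds no region higher in Cont, so a window without a peak may be lower in LSD2-KD, no different or too thinly covered.

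H3K4me1, the monomethyl mark on lysine 4 of histone H3, lies on enhancers and beside promoters. In the hepatocyte acute-phase response, interleukin 6 binds its receptor, STAT3 is phosphorylated and enters the nucleus, and secretory genes such as CRP and the serum amyloid A genes are transcribed. NF-kB and C/EBP factors act on many of the same genes, and SOCS3 and NFKBIA encode inhibitors that STAT3 and NF-kB themselves induce. RNA was not measured in these samples, so whether the cells transcribed these genes is not known from the data.

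Of the 8 member genes with an entry in the RefSeq promoter table (SAA1 and SAA2 have none), 3 had a peak within 2 kb of the gene start, namely CXCL8, IL6 and HAMP. Of points set every 10 kb along the chromosomes, 21.0% lay as close to a peak. The 250 bases before the starts of CXCL8, IL6 and HAMP are shown because these are the promoters beside which a peak was called. They are RefSeq sequences on GRCh38.p14, chr4:73740319-73740568 for CXCL8, chr7:22726950-22727199 for IL6 and chr19:35282278-35282527 for HAMP, all on the plus strand. Peak positions are on hg19 and were not set against these coordinates, so whether a peak covers these bases is not known. Capitals mark matches, on either strand, to the letters searched, which were TTCNNNGAA (STAT), TTGCNNAA (C/EBP), TGANTCA (AP-1), GGCGCC (BMP response) and TATAAA (the core of the TATA box), and to a fixed NF-kB motif given here by its name.
CXCL8: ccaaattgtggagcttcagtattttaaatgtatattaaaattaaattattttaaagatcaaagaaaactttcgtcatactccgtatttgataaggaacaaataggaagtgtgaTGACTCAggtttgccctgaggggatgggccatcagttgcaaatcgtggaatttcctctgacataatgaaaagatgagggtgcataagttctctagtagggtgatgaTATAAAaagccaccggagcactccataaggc
IL6: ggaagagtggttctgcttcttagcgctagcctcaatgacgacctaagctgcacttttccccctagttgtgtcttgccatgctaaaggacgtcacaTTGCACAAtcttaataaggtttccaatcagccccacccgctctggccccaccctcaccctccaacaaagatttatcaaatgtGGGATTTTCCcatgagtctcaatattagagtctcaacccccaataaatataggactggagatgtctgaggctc
HAMP: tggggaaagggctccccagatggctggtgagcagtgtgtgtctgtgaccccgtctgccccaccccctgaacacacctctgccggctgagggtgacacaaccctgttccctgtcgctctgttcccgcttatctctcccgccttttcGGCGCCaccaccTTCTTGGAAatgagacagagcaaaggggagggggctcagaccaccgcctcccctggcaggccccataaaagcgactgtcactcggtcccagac

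The CXCL8 stretch held an AP-1 match 137 to 131 bases before the start and a TATA match at 31 to 26. In IL6 there was a C/EBP match at 155 to 148 and an NF-kB match at 73 to 64. HAMP held a BMP response match at 105 to 100 and a STAT match at 93 to 85, which do not overlap. Of the 9 promoter stretches of the 8 genes (SOCS3 has a pair), the NF-kB motif was in those of IL6 and NFKBIA, STAT letters in that of HAMP, C/EBP letters in that of IL6 and AP-1 letters in that of CXCL8. BMP response letters were in those of HAMP, NFKBIA and 1 of SOCS3, and TATA letters in those of CRP, CXCL8 and NFKBIA. Over all 35116 promoter stretches of this length, 6.57% held the STAT letters, 9.05% C/EBP, 1.4% the NF-kB motif, 6.57% AP-1, 16.4% BMP response and 10.7% TATA. These matches are descriptions of letters and not binding sites. Each motif was searched in 1 fixed form, so a stretch without a match may still hold a variant of the motif.

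All 9 windows held at least 1 peak, which is close to the background. At least 1 peak also lay in 85.0% of all windows of 43 kb, the length at CRP, in 85.4% of those of 44 kb (HAMP, CXCL8 and NFKBIA), in 85.9% of 45 kb (SOCS3), in 86.3% of 46 kb (IL6), in 92.6% of 66 kb (SAA2-SAA1), in 96.9% of 105 kb (IL6R) and in 97.5% of 116 kb (STAT3). The peaks were unevenly shared out, with 17 at SAA2-SAA1 and STAT3 and 15 at the other 7 loci. Over the 0.553 Mb of the windows together the density was 57.9 peaks per Mb (95% Poisson interval 39.6 to 81.7), against 56.4 per Mb over the chromosomes other than Y. The peaks covered 2.51% of the window bases, against 1.92% of that length. Peak density at these loci as a group was thus close to that of the rest of the list.

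**Figure D1:**
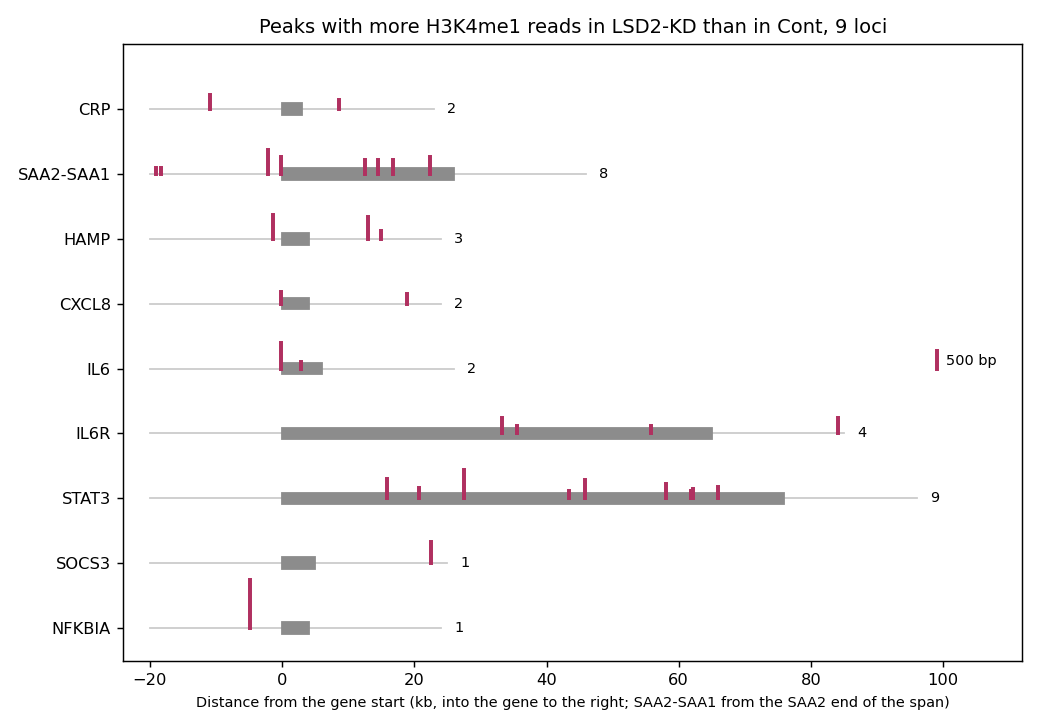
Peaks called higher in LSD2-KD than in Cont at each of the 9 loci, with the distance from the gene start in kb on the horizontal axis. Grey boxes are gene spans, red lines are peaks with a height in proportion to their width, and the number at the right is the peak count. The 9 STAT3 peaks all lie inside the gene span, while the spans of CRP, HAMP, SOCS3 and NFKBIA hold none.

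The ligand genes IL6 and CXCL8 each had a peak at the gene start. IL6, the cytokine that drives the acute-phase response, had 2 peaks. The first, 746 bp wide, lay on chromosome 7 from 22765446 to 22766191 and overlapped the start of the span. The second, of 176 bp, lay 2.8 kb into the gene, from 22768827 to 22769002. The gap between them was 2.64 kb, and neither flank held another peak. Beyond the window the nearest peaks were 44.1 kb before the span and 30.2 kb past it. Both IL6 peaks were written in 2 rows of the list. In the RefSeq gene table IL6 is overlapped by IL6-AS1, an antisense gene, and H3K4me1 carries no strand, so a peak there cannot be given to one of the genes.

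CXCL8, a neutrophil-attracting chemokine, also had 2 peaks. One of 338 bp, on chromosome 4 from 74605724 to 74606061, overlapped the start of the span. The other, of 286 bp, lay 14.8 kb past the gene's end, from 74624800 to 74625085, on the side of CXCL6, the next protein-coding gene in the table. No peak lay between them over 18.74 kb. Since the spans are rounded to 1 kb, an overlap with the start of IL6 or CXCL8 means a peak at or within about 1 kb before it.

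IL6R, the binding chain of the interleukin 6 receptor, had 4 peaks in a window of 105 kb, and all windows of that length had a median of 5 (quartiles 3 and 8). The first 33.0 kb of the gene held none. The first peaks inside it were 446 bp (chromosome 1, 154410021 to 154410466) and 205 bp wide (154412404 to 154412608) and lay 1.94 kb apart. Another, from 154432711 to 154432932 (222 bp), lay 9.1 kb before the gene's end. The gene entries IL6R-AS1 and PSMD8P1 overlap IL6R, and whether any of these peaks lie in them was not analysed here. The last of the 4 peaks, from 154460838 to 154461292 (455 bp), lay 18.8 kb past the end of IL6R. The next protein-coding gene on that side is SHE, and whether the peak lies inside SHE was not analysed here. The IL6R start lay in a peak-free stretch of 75.3 kb, the longest of the 8 genes. Points set every 10 kb along the chromosomes lay in stretches with a median of 32.5 kb and an upper quartile of 58.6 kb.

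STAT3, the transcription factor downstream of this receptor, had the most peaks, 9 in 116 kb. All windows of that length had a median of 6 and an upper quartile of 9, and 27.2% of them held as many peaks or more. All 9 lay inside the gene span, on chromosome 17, and none in either flank. The gene is on the minus strand, so its start is at the high end of the span, and the peaks lay from 15.6 to 65.8 kb into the gene. The widest, of 832 bp, ran from 40513117 to 40513948, the next, of 555 bp, from 40524866 to 40525420, and then one of 529 bp from 40494912 to 40495440. The 555 bp peak was also the one nearest the start. The narrowest, of 204 bp, was only 92 bp from the next peak toward the gene's end. The 4 peaks nearest the gene's end lay between 57.9 and 65.8 kb into the gene, with gaps of at most 3.51 kb. Around the start, a stretch of 35.8 kb held no peak, close to the 32.5 kb median of the grid points. Just outside the 20 kb limit, a peak of 370 bp lay 20.3 kb before the start.

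The inhibitor genes SOCS3 and NFKBIA had 1 peak each, and neither peak was in the gene span. SOCS3, an inhibitor of cytokine receptor signalling, had a 625 bp peak on chromosome 17 from 76334239 to 76334863, which lay 17.1 kb past the gene's end. A second and wider peak, of 1052 bp, lay 20.3 kb before the start and so just outside the limit. The stretch around the SOCS3 start held no peak over 42.5 kb. Past the gene's end, the next peak beyond the window was 122.7 kb from the span. Of all windows of 45 kb, 85.9% held at least 1 peak, with a median of 2.

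NFKBIA encodes I-kappa-B alpha, which holds NF-kB in the cytoplasm. Its single peak was the widest of the 32, at 1399 bp, and lay 4.1 kb before the gene start, on chromosome 14 from 35878106 to 35879504. It was the only 1 of the 32 that reached 1 kb, a width reached by 0.899% of the list, and 295 peaks of the list were as wide or wider. The locus lies in a stretch with many peaks. The density was 22.7 peaks per Mb in the window (95% Poisson interval 0.575 to 126.6), against 90.5 per Mb in the 1 Mb on each side, a ratio of 0.251 (0.00636 to 1.4). Peaks in those surroundings had a median width of 348 bp, 34.3% of them were 420 bp or wider, and 6 of 181 were wider than the NFKBIA peak. The next peaks were 25.8 kb past the gene's end and 41.9 kb before its start.

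Of the secreted acute-phase products, the SAA locus held 8 peaks, HAMP 3 and CRP 2, with density intervals that overlap. SAA1 and SAA2 encode serum amyloid A proteins, apolipoproteins of high-density lipoprotein whose plasma level rises steeply in inflammation. Their shared window of 66 kb on chromosome 11 held 8 peaks, the densest of the 9 loci at 121.2 peaks per Mb (95% Poisson interval 52.3 to 238.8). All windows of this length had a median of 3 peaks and an upper quartile of 5, and 8.8% held 8 or more. Peaks covered 4.77% of the window, against a median of 1.56%. It was the only locus above the upper quartile of its windows. In the 1 Mb on each side the density was 67.0 per Mb, so the ratio to the surroundings was 1.81, with an interval (0.781 to 3.57) that includes 1.

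The SAA peaks formed 3 groups and a single peak. A narrow pair of 155 and 159 bp lay 19.1 and 18.2 kb outside the SAA2 end of the span. The widest of the locus, of 689 bp, lay 1.7 kb outside that end, from 18263566 to 18264254, and 1.35 kb from it a peak of 490 bp, from 18265601 to 18266090, overlapped the end itself. The next protein-coding gene on that side is SAA4, and a further gene entry, SAA2-SAA4, overlaps SAA2. In the middle of the span 3 peaks of nearly equal width, 387, 389 and 399 bp, followed each other with gaps of 1.48 and 1.91 kb. The single peak, of 482 bp, ran from 18288202 to 18288683 and lay 3.3 kb inside the SAA1 end. No peak lay in the flank past SAA1, and the next one was 55.1 kb away. The peaks of 689, 490 and 399 bp were written in 2 rows each. SAA1 and SAA2 are near-identical copies, and how the alignment handled reads that match both is not stated in the labels or the header. A peak in sequence that the copies share is therefore uncertain as to which copy it belongs to. Which of the peaks lie in such sequence was not analysed here.

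CRP, a pentraxin that binds bacterial surfaces, had 2 peaks, and none in its 3 kb span. One of 395 bp lay 10.8 kb before the start, on chromosome 1 from 159695770 to 159696164. The other, of 264 bp, lay 5.4 kb past the end, from 159676308 to 159676571, on the side of APCS, another pentraxin gene. The stretch of 19.2 kb between them holds the whole gene. Density was 46.5 peaks per Mb at CRP (95% Poisson interval 5.63 to 168.0), against 45.5 in the surroundings.

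HAMP encodes hepcidin, the liver hormone that blocks iron export through ferroportin. It had 3 peaks, of which the widest, 688 bp, lay 1.0 kb before the start on chromosome 19, from 35771264 to 35771951, on the side of USF2. The others lay past the end, at 8.7 kb (628 bp, from 35785737 to 35786364) and at 10.8 kb (211 bp, from 35787831 to 35788041). They lay on the side of MAG, the next protein-coding gene, and whether they lie inside it was not analysed here. The ratio of the window to its surroundings was 1.82 (0.375 to 5.31), with 68.2 (14.1 to 199.3) against 37.5 peaks per Mb. With 3 peaks, this ratio cannot be told from 1 by counting error alone.

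**Figure D2:**
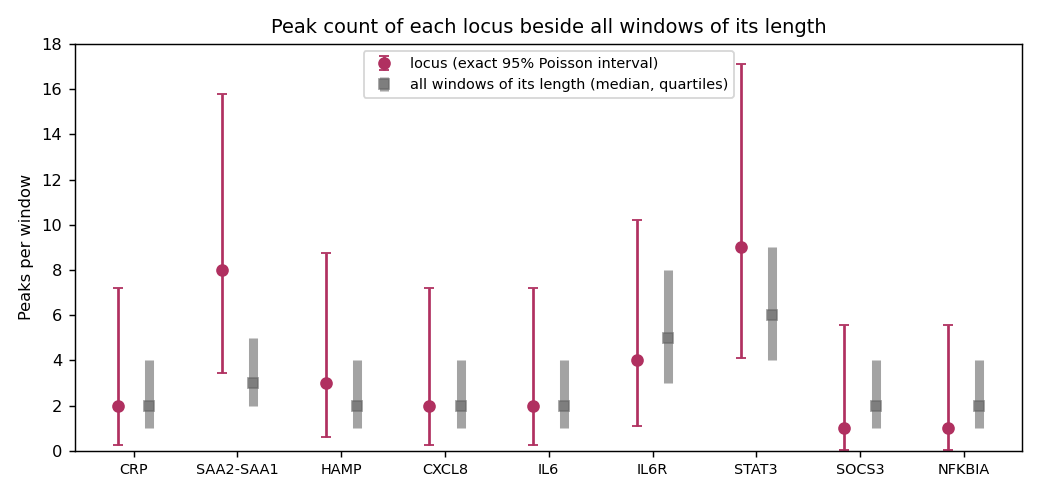
Peaks per window at each locus (red points, with exact 95% Poisson intervals) beside the median and quartiles of all windows of the same length (grey). SAA2-SAA1, with 8 peaks, is the only locus above its upper quartile, and no locus lies under its lower quartile.

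Set beside windows of their own length, 3 of the 9 loci (SAA2-SAA1, HAMP and STAT3) had more peaks than the median window and 3 (IL6R, SOCS3 and NFKBIA) had fewer. Beside windows of its own chromosome NFKBIA was at the median, which is 1 on chromosome 14, and 2 loci had fewer. CRP, CXCL8 and IL6 were at the median of 2 over all chromosomes. Against the 1 Mb on each side, 4 loci were denser and 5 sparser, and all 9 intervals included the density of the surroundings. The receptor, the ligands and both inhibitors had ratios from 0.251 to 0.689, while SAA2-SAA1, HAMP, STAT3 and CRP had ratios from 1.02 to 1.82. None of these differences from the surroundings exceeds counting error, and peaks are not replicates of a condition.

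**Figure D3:**
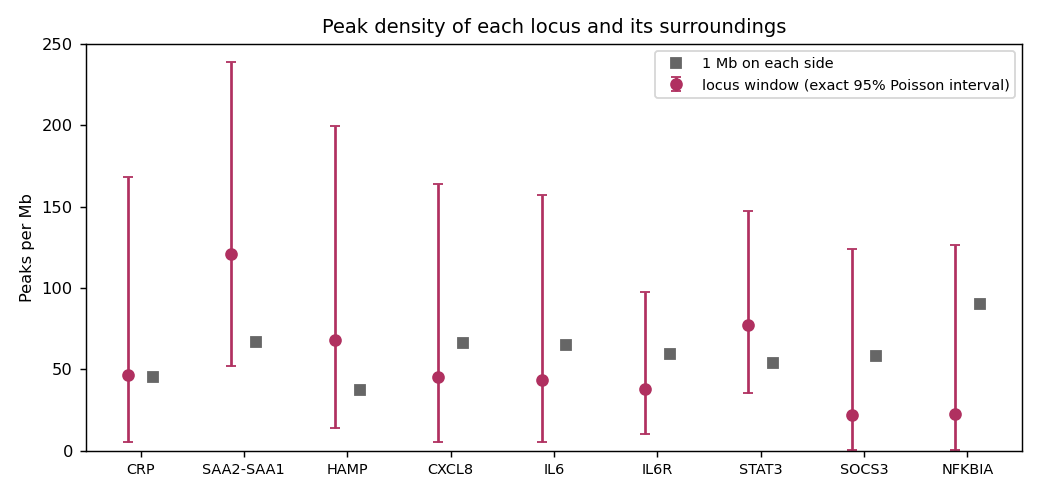
Peaks per Mb in each locus window (red points, exact 95% Poisson intervals) and in the 1 Mb on each side (grey squares). The interval of each of the 9 loci includes the value of its surroundings, and NFKBIA has the densest surroundings, 90.5 peaks per Mb.

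The gene starts lay about as far from a peak as other places in the genome. For the 8 genes with a known orientation, the median distance from the start to the nearest peak was 6.25 kb, against 6.69 kb for points every 10 kb along the chromosomes. A peak lay within 2 kb of 3 of the 8 starts, and 21.0% of the grid points were as close. The distances were 0.0 kb for CXCL8 and IL6, 1.0 kb for HAMP, 4.1 kb for NFKBIA and 8.4 kb for CRP. For STAT3 the distance was 15.6 kb, for SOCS3 20.3 kb and for IL6R 33.0 kb. The distances carry the 1 kb rounding of the spans.

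Over the 9 loci together, peaks were denser in the gene spans than in the flanks, but this rested on STAT3 and SAA2-SAA1 and on how peaks at the edge of a span were counted. In the spans 20 peaks gave 103.6 per Mb (95% Poisson interval 63.3 to 160.0), against 12 peaks in the flanks at 33.3 per Mb (17.2 to 58.2), a ratio of 3.11. Locus by locus, the span was denser than its flanks at 5 (SAA2-SAA1, CXCL8, IL6, IL6R and STAT3), while the spans of CRP, HAMP, SOCS3 and NFKBIA held no peak. By peak midpoint CXCL8 left the first group, so the span was denser at 4 loci and not denser at 5. STAT3 and SAA2-SAA1 held 14 of the 20 peaks that overlapped a span. Without both loci the ratio was 2.05, with 65.9 against 32.1 peaks per Mb. A peak that touches the end of a span counts as inside it, which favours short spans, and by peak midpoint the ratio over the 9 loci was 2.11. Without both loci and by midpoint it was 1.12, with 4 peaks left in the spans. The span between SAA2 and SAA1 also holds sequence between the genes, and the flanks hold parts of other genes.

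**Figure D4:**
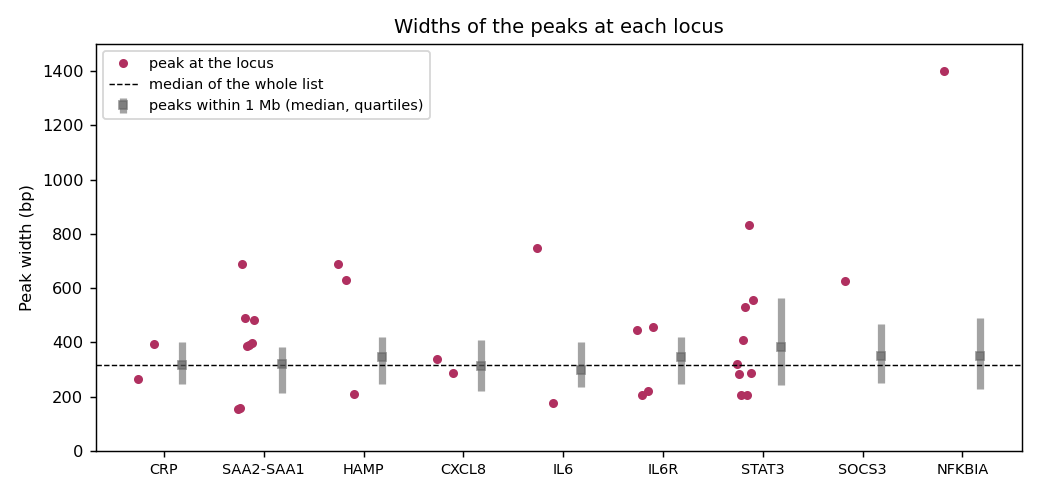
Width in bp of each peak at the 9 loci (red points) beside the median and quartiles of the peaks in the 1 Mb on each side (grey), with the median of the whole list, 316 bp, as a dashed line. The NFKBIA peak, at 1399 bp, is the widest, and the STAT3 surroundings have the widest median, 381.5 bp.

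The peaks of these loci had a larger median width than the list. Their median width was 392 bp (quartiles 253.5 and 535.5 bp, range 155 to 1399 bp), against 316 bp in the list (quartiles 229 and 396 bp). An interval for the member median from order statistics, 283 to 490 bp, includes 316 bp. In all, 13 of the 32 peaks were 420 bp or wider, 40.6% (95% Wilson interval 25.5 to 57.7%), against 17.8% of the list. This width was chosen after the values were seen, so the interval is a description and not a test. The share was 32.1% with a 50 kb flank, 41.7% without SAA2-SAA1 and 43.5% without STAT3. The 1086 peaks in the 1 Mb on each side of the windows lay between the members and the list, with a median of 333.5 bp and 25.4% of 420 bp or more. By locus this share of the surroundings ran from 14.9% at SAA2-SAA1 to 40.7% at STAT3. Wide and narrow peaks occurred side by side, with 15 of the 32 above the upper quartile of the list and 8 under its lower quartile. IL6, with peaks of 746 and 176 bp, and HAMP, with 688, 628 and 211 bp, show the contrast within a locus. Another peak lay within 5 kb of 65.6% of the members, against 52.2% of the list.

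Of the 32 peaks, 5 were written in more than 1 row, 15.6% (95% Wilson interval 6.86 to 31.8%), against 10.7% of the list. They were 3 of the 8 SAA peaks and both IL6 peaks, each with 2 rows.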

How the data were processed

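ChIP-seq of H3K4me1 and input was made in LSD2-KD and Cont HepG2 cells, 1 library each. Per the submitters' processing notes, BWA and hg19 were used (version not stated). Per the file header, the authors trimmed reads, removed duplicates and called peaks with MACS, setting the LSD2 siRNA ChIP library against the GL3 siRNA ChIP library, fragments of 128 bp, a p-value cutoff of 1e-05 and an enrichment factor of 32. Neither input is named. The deposited file has 3 columns, chromosome, start and end, in bp and without a score.

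The 180505 deposited rows were reduced to 160601 distinct peaks. Positions are printed counted from 1. Member genes and lists were chosen with earlier results of these data known. Every member gene and every member peak was covered. At most 6 peaks per locus are given singly, and in larger loci the 3 widest, the one nearest the start and those in more than 1 row. Some others were added after their values were seen, as were the grid points, the 420 bp width and the comparison of spans with flanks. Windows were tiled without overlap over all chromosomes but Y, leaving out peak-free gaps over 1 Mb. Orientation came from the RefSeq promoter table, which matched 8 of 10 genes, and gene names and neighbours from the GRCh38.p14 gene table. Other genes of the pathway were not analysed here, since no hg19 annotation was used. Poisson and Wilson intervals (95%) cover counting error only. No test was run. Counting was checked on simulated peaks. Python 3.11.15, pandas 2.3.3 and SciPy 1.17.1 were used.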

Additional observations from a re-analysis of the deposited data

How the results depend on the processing

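The total of 32 peaks became 20 with no flank, 25 with 10 kb, 56 with 50 kb, 20 when narrower peaks than the list median were dropped, 37 by rows and 30 with peaks within 1 kb merged. The median per locus, 2, became 1 with no flank, 5 with 50 kb and 1 for the wider peaks. These follow the length of the windows or the peaks removed. The 20 peaks in gene spans became 13 for the wider peaks and 17 by midpoint. The median width (365 to 427 bp under other flanks or merging) stayed within its interval, and the number of loci above the median window was 3 in windows of the same chromosome and of the surroundings too, while the number below it was 2 in place of 3 in windows of the same chromosome. Of 63 alternatives for single loci, 19 moved a count by over 1.5 times. SOCS3 had no peak with a 10 kb flank and 4 with 50 kb, and CRP had 1 and 6. Alternatives that leave out a locus, count loci below the median by chromosome, change the distance to a start or change the flank for the 420 bp width were chosen after seeing the data. The pooled ratio of span to flank density stayed above 1 in each alternative, from 1.12 to 3.19. At CXCL8 alone the direction changed, with the span denser than its flanks by any overlap but not by peak midpoint. Counts, widths and shares taken alone have no direction that could reverse. Alternatives by score were not run, since the file holds none. No paired analysis was possible because there is a single library per group, and none could be left out. The unknown depth limits every count of 1 or 2 peaks.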

Other observations

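Beyond the windows, from 20 to 100 kb outside the spans, SAA2-SAA1 had 12 peaks on the SAA2 side and 10 on the SAA1 side. IL6 had 1 on the side before its start and 9 past its end, toward TOMM7, and SOCS3 had 5 before its start, toward PGS1, and 0 past its end. HAMP had 2 before its start and 1 past its end. These regions were looked at after the members, and their place relative to genes was not analysed here.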
